A study of Mus musculus with 6 samples.

Results

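The genes described here control how the liver takes up, breaks down, makes and releases glucose. They are Slc2a2, Gckr, Pfkfb1, Pklr, Pck1, Fbp1, G6pc1, Ppargc1a and Mlxipl. These 9 genes and the further lists below were chosen by name for their roles, but with earlier results of these data known. Shares of them set beside those of all genes are therefore descriptions and not tests of the lists. The rows of the 9 genes were found by Ensembl identifier in the deposited gene table. All 9 were present among the 55357 genes of the table and all 9 had enough counts to be tested. RNA was sequenced from livers of wild-type (WT) male C57BL6/J mice that were 8-9 weeks old. Vehicle mice received 2.5% Tween-80, and treated mice received esculetin, a coumarin derivative, each by oral gavage for 7 days. Every mouse ate a control diet with 10% of kcal from fat for 4 days and then a high-fat diet (HFD) with 60% of kcal from fat for 3 days, so no library comes from mice kept on the control diet. Sample names put the daily esculetin dose at 180 mg/kg, whereas the treatment field of the same samples puts it at 90 mg/kg, and no dose is therefore attached to the group here. There were 3 vehicle and 3 esculetin libraries, each pooled from 2 mice, so that differences between mice within a pool cannot be seen. Serum in this study was taken from non-fasted mice, but whether the livers were collected in the fed state is not stated in the sources used here.

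In the fed liver, glucose enters hepatocytes and is phosphorylated and carried through glycolysis toward pyruvate and fat synthesis. In fasting the route runs backward, and gluconeogenesis makes glucose from lactate, alanine and glycerol for release into the blood. The direction is set by a few steps that are not reversible, each served by separate forward and backward enzymes. Insulin lowers and glucagon and glucocorticoids raise transcription of the backward enzymes. ChREBP, a glucose-sensing transcription factor, raises forward enzymes such as Pklr, among other targets.

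Total counts per library lay between 27957713 and 34920922, with all esculetin libraries deeper than the vehicle libraries. Mitochondrially encoded genes took 7.31% to 7.62% of the vehicle counts and 6.87% to 7.26% of the esculetin counts, which did not overlap, and the part of this difference in the results was not tested. In these libraries 3 counts amounted to between 0.0865 and 0.109 CPM, which is the number of reads of a gene for every 1000000 reads of its library after TMM normalization. Hepatocyte markers were abundant, with Alb between 54311 and 61206 CPM, while the pancreatic markers Ctrb1, Cpa1, Pnlip and Amy2a5 had no counts in any library and the fifth, Cela1, lay between 15.8 and 25.7 CPM. A gene was called when edgeR's quasi-likelihood test gave an unadjusted p-value under 0.05 and the fold change was over 1.5, which are the thresholds of the study. Of 14433 genes tested, 452 were called, and the median log2 fold change of esculetin against vehicle over all of them was -0.0080.

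Of the 9 glucose control genes, 1 was called, G6pc1, which was lower with esculetin. This is 11.1% of the 9, where 3.13% of all genes tested were called, with 1.76% called as lower and 1.37% as higher. An unadjusted p-value under 0.05 was reached by 2 of the 9, G6pc1 and Pfkfb1, against 11.9% of all genes tested. The 3 vehicle libraries did not overlap the 3 esculetin libraries for G6pc1, Pfkfb1 and Pck1, and groups that did not overlap were found for 17.4% of all genes. After Benjamini-Hochberg adjustment over all genes tested, 0 of the 9 reached a p-value under 0.05 in edgeR's quasi-likelihood test, where 6 genes, or 0.0416%, did so in the whole table. With DESeq2, Pfkfb1 had an adjusted p-value of 0.00163 and G6pc1 of 0.224. Fitted values were higher with esculetin for 4 of the genes and lower for 5, with a median log2 fold change of -0.01.

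**Figure D1:**
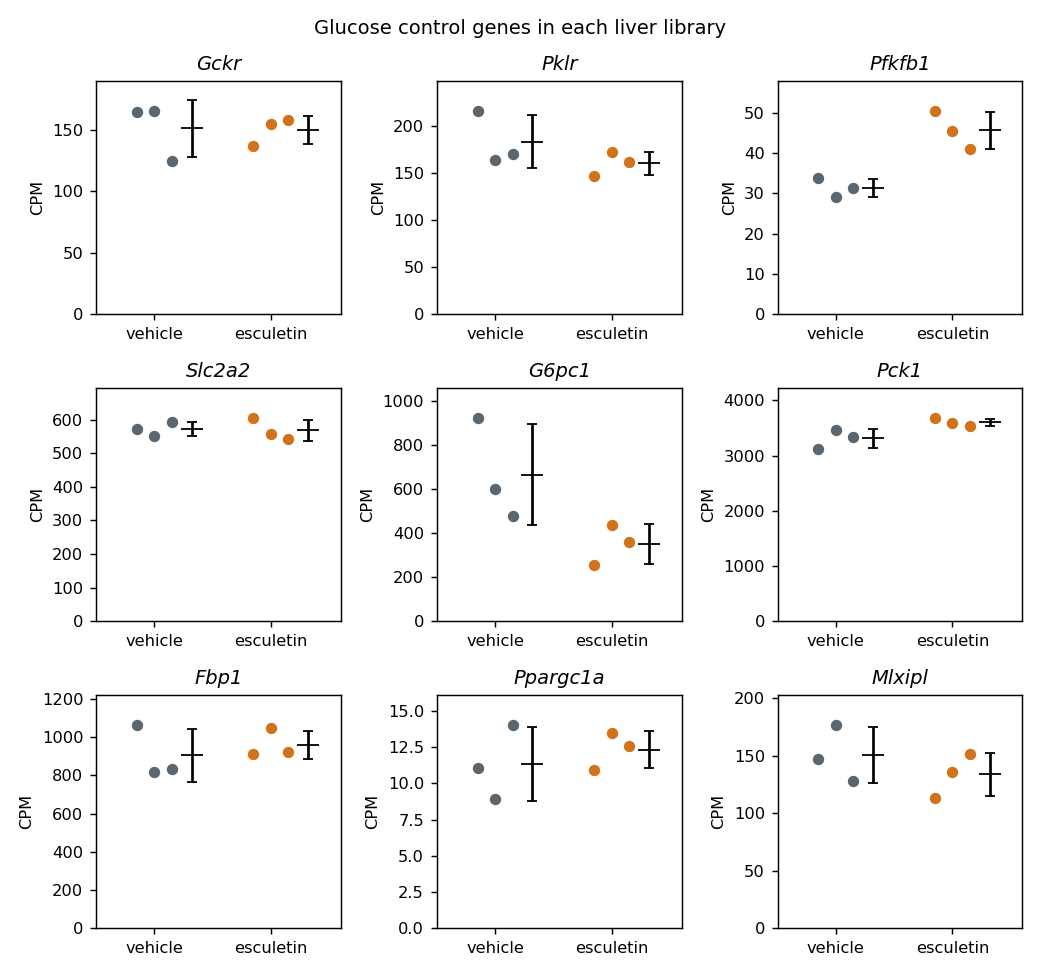
CPM (normalized counts, linear axes from 0) of each of the 9 genes in the vehicle (grey) and esculetin (orange) libraries, with a point for each library and a bar for the group mean ± SD (n = 3). The G6pc1 points of the vehicle group, 478 to 923 CPM, all lie above those of the esculetin group, 256 to 437 CPM, and the Pfkfb1 points are separated in the opposite direction.

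**Figure D2:**
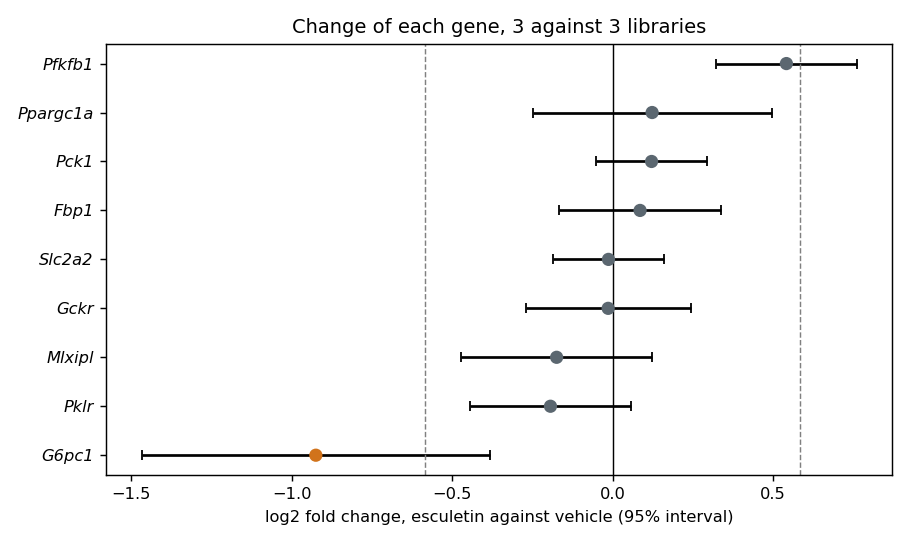
Log2 fold change of esculetin against vehicle for each gene, with its 95% interval from edgeR's quasi-likelihood test and dashed lines at a fold change of 1.5 in each direction. The intervals of G6pc1 (orange, the called gene) and Pfkfb1 do not include 0, and those of the other 7 genes do.

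G6pc1 encodes the catalytic subunit of glucose-6-phosphatase, which performs the last step of both gluconeogenesis and glycogen breakdown by freeing glucose from its phosphate. The vehicle libraries held 923, 599 and 478 CPM, and the esculetin libraries held 256, 437 and 362 CPM. Every vehicle library was above every esculetin library, although the gap between the lowest vehicle and the highest esculetin library was small next to the spread within the vehicle group. The means were 667 ± 230 CPM with vehicle and 351 ± 90.9 CPM with esculetin (SD, n = 3), a fold of 0.527 with a 95% interval from 0.362 to 0.767. On the log2 scale the difference was -0.92 (SE 0.24, unadjusted p = 0.00357, adjusted p = 0.204 in edgeR). Among the 9 genes this was the widest spread between replicates, with an SD of log2 CPM of 0.48 in the vehicle group and 0.39 in the esculetin group. In bulk liver, fewer cells that express a gene and less RNA per cell cannot be told apart.

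The size of the G6pc1 difference varied with the libraries included. Without vehicle replicate 1, which had the highest level, the log2 fold change was -0.62 (unadjusted p = 0.0109, edgeR), and without vehicle replicate 3 it was -1.11 (unadjusted p = 0.000824, edgeR). Leaving out esculetin replicate 1, the lowest library, gave -0.74 (unadjusted p = 0.0128, edgeR). G6pc1 stayed past the thresholds of the study in all 6 of these fits. When all libraries were thinned to the smallest total, the value was -0.92, the same as at full depth.

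**Figure D3:**
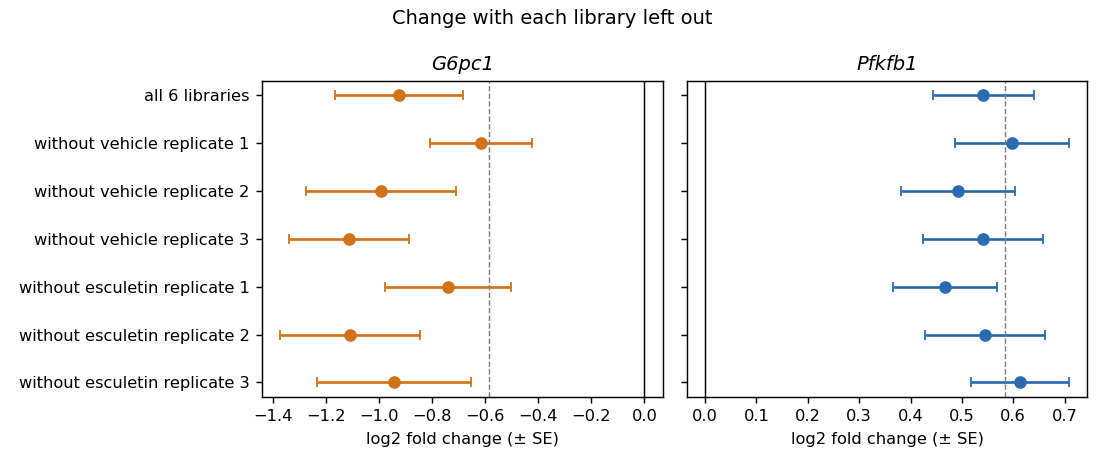
Log2 fold change ± SE of G6pc1 (left, orange) and Pfkfb1 (right, blue) with all 6 libraries and with each library left out, with a dashed line at a fold change of 1.5. G6pc1 moves between -1.11 and -0.62 and stays beyond the line, while Pfkfb1 moves between 0.47 and 0.61 and crosses it without vehicle replicate 1 and without esculetin replicate 3.

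G6pc1 lies on chromosome 11 of GRCm39 from 101258369 to 101268729 on the plus strand and overlaps no other annotated gene. Pck1, the other gene that classically marks gluconeogenic transcription, lies on chromosome 2 from 172994744 to 173001066 on the plus strand, also with no overlapping gene. Pklr lies on chromosome 3 from 89043449 to 89054619 on the plus strand, and shares 1239 bases at its end with Hcn3 on the other strand. The promoters of G6pc1 and Pck1 are shown because these paired genes of the same route gave different values here, and that of Pklr because it is the textbook target of ChREBP. Each is the 250 bases before a RefSeq transcript start, read on the gene's strand and placed in GRCm39 by exact match. The G6pc1 window is chr11:101258292-101258541, the Pck1 window is chr2:172994616-172994865 and the Pklr window, before the downstream of its starts in the RefSeq table, is chr3:89043680-89043929. RefSeq starts can differ from the GENCODE gene ends given above. Capitals mark TTACGT, a variant of the cAMP response element, and TGTTTT, a forkhead core, in either orientation in G6pc1 and Pck1, and CACGGG, a part of a carbohydrate response element, in Pklr.
G6pc1: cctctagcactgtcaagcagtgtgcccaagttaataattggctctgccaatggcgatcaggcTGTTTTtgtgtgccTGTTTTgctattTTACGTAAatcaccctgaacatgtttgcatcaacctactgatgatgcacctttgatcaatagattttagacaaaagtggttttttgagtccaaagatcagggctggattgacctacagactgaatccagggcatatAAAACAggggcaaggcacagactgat
Pck1: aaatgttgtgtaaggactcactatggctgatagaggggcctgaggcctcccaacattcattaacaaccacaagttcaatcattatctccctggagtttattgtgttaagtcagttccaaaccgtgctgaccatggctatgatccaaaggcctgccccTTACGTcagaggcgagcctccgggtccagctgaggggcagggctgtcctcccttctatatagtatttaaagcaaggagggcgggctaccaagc
Pklr: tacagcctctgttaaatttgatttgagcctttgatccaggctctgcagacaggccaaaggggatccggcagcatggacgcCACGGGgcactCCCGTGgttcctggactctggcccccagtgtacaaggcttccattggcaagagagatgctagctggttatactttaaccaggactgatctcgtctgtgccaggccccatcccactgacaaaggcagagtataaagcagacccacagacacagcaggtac

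TTACGT, searched on both strands, stood in the windows of G6pc1 (-162 to -157 from the start and, overlapping it on the other strand, -160 to -155), Pck1 (-93 to -88) and Ppargc1a (-135 to -130). It occurred in 2.40% of the 32851 RefSeq promoter windows. TGTTTT stood in the G6pc1 window at -188 to -183, -174 to -169 and, on the other strand, -26 to -21, and in the Gckr window at -83 to -78, against 19.8% of all windows. CACGGG stood in the Pklr window at -170 to -165 and on the other strand at -159 to -154, against 8.46% of all windows. These letters were chosen after the windows had been read. Of the motifs set earlier, CACGTG was found at -98 to -93 of Mlxipl and in 6.02% of all windows. TGTTTAC, TGACGTCA and TTGCGCAA were found in none of the 14 windows of the 9 genes, and in 3.17%, 1.55% and 0.164% of all windows. A match describes the letters only, and no binding was measured.

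Pck1 encodes cytosolic phosphoenolpyruvate carboxykinase, which commits oxaloacetate to glucose synthesis. It held 3124, 3468 and 3342 CPM with vehicle and 3678, 3585 and 3544 CPM with esculetin. The groups did not overlap, with the esculetin libraries above the vehicle libraries, the opposite order to G6pc1. The means differed by only a fold of 1.09 (3311 ± 174 against 3602 ± 68.2 CPM, SD, n = 3), and the log2 fold change of 0.12 (SE 0.078, unadjusted p = 0.149, edgeR) did not pass the test. Its 95% interval ran from -0.05 to 0.30, so that a fall of Pck1 of the size measured for G6pc1 lies outside it.

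Fbp1 encodes the liver fructose-1,6-bisphosphatase, the backward counterpart of phosphofructokinase. It lies on chromosome 13 from 63012567 to 63036263 on the minus strand, with no overlapping gene. The vehicle libraries held 1065, 821 and 832 CPM and the esculetin libraries 915, 1047 and 922 CPM. The groups overlapped, and the log2 fold change was 0.09 (SE 0.11, unadjusted p = 0.465, edgeR) with a 95% interval from -0.17 to 0.34. With a library left out it ran from 0.02 to 0.22, the highest value being that without vehicle replicate 1 (unadjusted p = 0.0397, edgeR).

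Slc2a2 encodes GLUT2, the transporter through which glucose enters and leaves hepatocytes. It lies on chromosome 3 from 28752051 to 28785508 on the plus strand, within a lncRNA annotated on the other strand that had at most 0.204 CPM. Its levels were 573, 551 and 594 CPM with vehicle and 604, 557 and 542 CPM with esculetin. In edgeR this was the smallest difference of the 9 genes, with a log2 fold change of -0.01 (SE 0.078) and a 95% interval from -0.19 to 0.16. With limma-voom that of Gckr was smaller (-0.0048, against -0.0135 for Slc2a2).

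The remaining genes of the route from pyruvate to glucose were higher with esculetin more often than lower. Of 13 other gluconeogenesis genes tested, 11 had higher and 2 lower fitted values, with a median log2 fold change of 0.11 beside -0.0080 over all genes. An unadjusted p-value under 0.05 was reached by 6 of the 13, or 46.2%, all higher, where 6.53% of all genes were higher at that level. None of the 13 was called, and none had an adjusted p-value under 0.05 (edgeR, smallest 0.203). The 6 genes were Pcx, Slc37a4, Gpt, Gpt2, Got1 and Mdh1. Only Pcx, Gpt and Got1 kept such a p-value with each library left out, and the number fell to 3 without vehicle replicate 2 and without esculetin replicate 1. Pcx, pyruvate carboxylase, which makes the oxaloacetate that Pck1 uses, held 363, 336 and 344 CPM with vehicle and 404, 434 and 438 CPM with esculetin (log2 fold change 0.29, SE 0.075, adjusted p = 0.204, edgeR). Got1, the cytosolic aspartate aminotransferase, had a log2 fold change of 0.43 (SE 0.11), Gpt and Gpt2, the alanine aminotransferases, had 0.32 and 0.26, and Mdh1, the cytosolic malate dehydrogenase and the most abundant gene of the list per length, had 0.20. Mpc1 and Mpc2, which form the mitochondrial pyruvate carrier, had log2 fold changes of 0.44 (SE 0.12) and 0.27 (SE 0.083) and were the genes with an unadjusted p-value under 0.05 among 11 tested for pyruvate entry, where the most abundant per length was Pdhb, a pyruvate dehydrogenase subunit.

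Slc37a4 encodes the transporter that carries glucose-6-phosphate to the G6pc1 enzyme inside the endoplasmic reticulum, and it differed in the opposite direction to G6pc1. It held 161, 164 and 217 CPM with vehicle and 260, 223 and 204 CPM with esculetin, groups that overlapped (log2 fold change 0.34, SE 0.13, unadjusted p = 0.0261, adjusted p = 0.351, edgeR). This p-value was over 0.05 when vehicle replicate 1, vehicle replicate 2 or esculetin replicate 1 was left out (0.0898, 0.0957 and 0.106, edgeR). The ratio of G6pc1 to Slc37a4 counts within a library was 5.75, 3.66 and 2.203 with vehicle and 0.981, 1.96 and 1.77 with esculetin. Likewise the ratio of G6pc1 to Pck1 was 0.295, 0.173 and 0.143 with vehicle and 0.0695, 0.122 and 0.102 with esculetin, and that of G6pc1 to Fbp1 was 0.867, 0.731 and 0.574 against 0.279, 0.417 and 0.392. For each of these ratios every esculetin library lay below every vehicle library. The same order was already present in G6pc1 alone, so the ratios are no separate result. For the ratio to Pck1 it follows from the opposite orders of the genes. G6pc3, the broadly expressed relative of G6pc1, was low, at 2.79 to 3.19 CPM with vehicle and 2.45 to 3.79 CPM with esculetin.

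**Figure D4:**
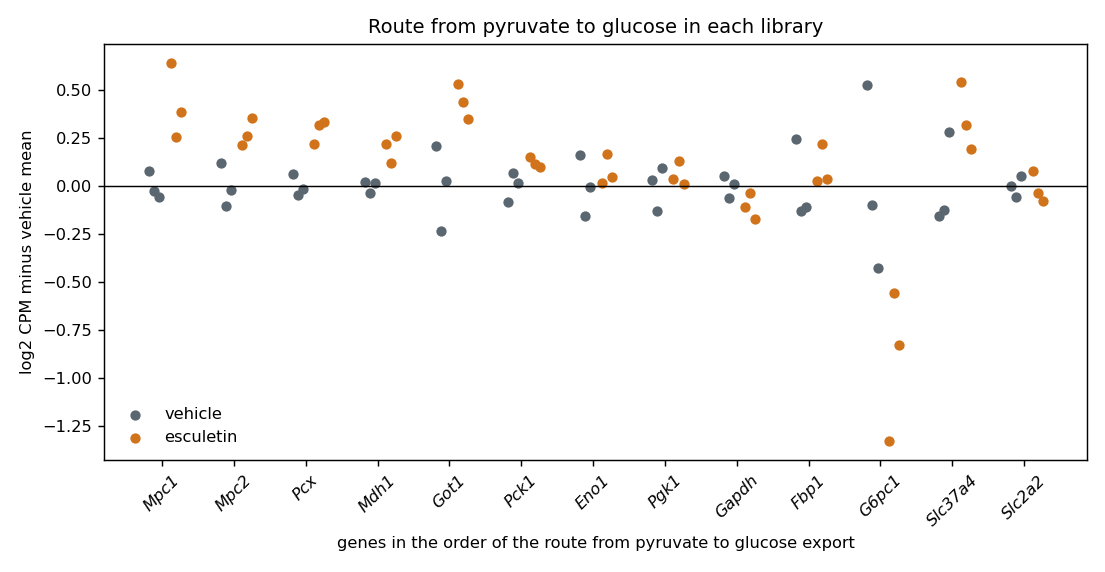
Log2 CPM (prior count 2) of 13 genes in each library minus the mean of the vehicle libraries, in the order of the route from pyruvate to glucose export, with vehicle in grey and esculetin in orange. G6pc1 is the only gene shown whose esculetin points all lie below its vehicle points, while those of Mpc1, Mpc2, Pcx, Mdh1, Got1 and Pck1 lie above the vehicle points.

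Pfkfb1 encodes the liver form of the bifunctional enzyme that makes and removes fructose 2,6-bisphosphate, the signal that switches glycolysis on and gluconeogenesis off. It lies on chromosome X from 149371225 to 149426874 on the plus strand and shares 1640 bases with Apex2 on the other strand, which had at most 9.02 CPM. The vehicle libraries held 33.7, 29.1 and 31.2 CPM and the esculetin libraries 50.3, 45.5 and 41.1 CPM. All esculetin libraries lay above all vehicle libraries. The means were 31.3 ± 2.31 and 45.6 ± 4.60 CPM (SD, n = 3), a fold of 1.46 with a 95% interval from 1.25 to 1.69. This was the smallest p-value of the 9 genes, the 29th of 14433 (log2 fold change 0.54, SE 0.098, unadjusted p = 0.000278, adjusted p = 0.132, edgeR), but the fold change was just under 1.5 and Pfkfb1 was not called. It was called when vehicle replicate 1 was left out (log2 fold change 0.60) and when esculetin replicate 3 was (0.61), and in those fits 2 of the 9 genes were called.

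The other genes that set fructose 2,6-bisphosphate did not pass the test, and whether their changes differed from that of Pfkfb1 was not tested. Of Pfkfb2, Pfkfb3, Pfkfb4 and Tigar, 0 of 4 had an unadjusted p-value under 0.05 in edgeR. Of all genes 11.9% did, and at that share 0 of 4 says little. Pfkfb3, the most abundant of them per length, held 37.0, 74.2 and 80.7 CPM with vehicle and 73.2, 59.7 and 84.7 CPM with esculetin, with 1 vehicle library well below the other 5. The log2 fold change of Pfkfb3 was 0.18 (SE 0.25), and -0.09 when that library was left out. The ratio of Pfkfb1 counts to those of the liver phosphofructokinase subunit Pfkl was 1.19, 1.21 and 1.16 with vehicle. With esculetin it was 2.01, 1.51 and 1.43, which did not overlap, as was already so for Pfkfb1 alone. The ratio of Pfkfb1 to Pfkfb3 overlapped, at 0.910, 0.392 and 0.387 with vehicle and 0.687, 0.762 and 0.485 with esculetin.

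Gckr encodes a regulatory protein of hepatocytes that restrains the phosphorylation of glucose between meals. It lies on chromosome 5 from 31454787 to 31484658 on the plus strand, with no overlapping gene. Its levels were 165, 165 and 125 CPM with vehicle and 137, 155 and 158 CPM with esculetin. The groups overlapped, and the log2 fold change was -0.01 (SE 0.11, 95% interval -0.27 to 0.24).

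Pklr encodes the liver pyruvate kinase, the last forward step of glycolysis. It held 215, 164 and 171 CPM with vehicle and 147, 172 and 161 CPM with esculetin, with 1 vehicle library above the other 5. The log2 fold change was -0.19 (SE 0.11, unadjusted p = 0.117, edgeR), and it was -0.06 when vehicle replicate 1, the high library, was left out. Hcn3, which shares bases with Pklr, had at most 25.2 CPM.

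Across the rest of glycolysis no gene passed the test. Of 20 other genes tested from hexokinases to lactate dehydrogenase, 0 were called and 0 had an unadjusted p-value under 0.05 in edgeR, with a median log2 fold change of -0.04. Glycogen genes gave 2 of 14, or 14.3%, with an unadjusted p-value under 0.05, near the 11.9% of all genes. These were Gbe1, the branching enzyme, at 0.26 and Ugp2, which makes UDP-glucose and was the most abundant of the list per length, at 0.24 on the log2 scale. Their p-values were under 0.05 in 14 of 16 fits for Gbe1 and in 10 of 16 for Ugp2. Among 10 fructose and pentose phosphate genes, Khk, ketohexokinase, had an unadjusted p-value under 0.05 in edgeR, at a log2 fold change of 0.24. It had such a value in 12 of 16 fits. Tkfc, which phosphorylates glyceraldehyde from fructose, was the most abundant per length at a log2 fold change of 0.11.

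Mlxipl encodes ChREBP. It lies on chromosome 5 from 135118744 to 135168615 on the plus strand and shares 884 bases with a lncRNA on the other strand that had at most 1.197 CPM. It held 148, 177 and 128 CPM with vehicle and 114, 136 and 152 CPM with esculetin. The groups overlapped, with a log2 fold change of -0.17 (SE 0.13, unadjusted p = 0.222, edgeR) that ran from -0.04 without vehicle replicate 2 to -0.28 without vehicle replicate 3. The gene table does not separate the transcripts of the upstream and downstream Mlxipl starts. Of 11 other partners and targets of ChREBP tested, 1 was called, or 9.09% beside 3.13% of all genes. This was Txnip, an arrestin-fold protein that restrains glucose uptake. Txnip held 36.2, 34.9 and 43.6 CPM with vehicle and 44.9, 48.2 and 104 CPM with esculetin, and the highest library decided its call, since the log2 fold change was 0.78 (SE 0.28) with that library and 0.29 (SE 0.11) without it. With DESeq2, and without vehicle replicate 2, Txnip was not called either. Gpd1, glycerol-3-phosphate dehydrogenase and the most abundant of the list per length, had a log2 fold change of -0.17 (SE 0.14).

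Ppargc1a encodes PGC-1alpha, a coactivator that drives gluconeogenic transcription in fasting. It lies on chromosome 5 from 51611592 to 51725068 on the minus strand and overlaps 4 gene models that still await experimental evidence, each at or under 0.149 CPM. It was the least abundant of the 9 genes, at 11.1, 8.93 and 14.0 CPM with vehicle and 10.9, 13.5 and 12.6 CPM with esculetin, and the groups overlapped. The log2 fold change was 0.12 (SE 0.17), and its 95% interval from -0.25 to 0.50 is the widest of the genes that did not pass the test.

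Among 20 other transcription regulators of the gluconeogenic programme, 2 were called, or 10%, both higher with esculetin, beside 1.37% of all genes called as higher. Nr0b2 encodes SHP, a nuclear receptor without a DNA-binding domain that represses gluconeogenic and bile acid genes. It held 15.3, 21.2 and 11.8 CPM with vehicle and 33.1, 31.97 and 28.4 CPM with esculetin, groups that did not overlap (log2 fold change 0.95, SE 0.18, adjusted p = 0.132, edgeR). Cebpb, the C/EBPbeta transcription factor, held 24.9, 35.6 and 30.2 CPM with vehicle and 53.7, 43.4 and 40.3 CPM with esculetin (log2 fold change 0.60, SE 0.14, adjusted p = 0.175, edgeR). The Cebpb fold change was close to the threshold and fell below it without vehicle replicate 1, without esculetin replicate 1 and with scaling by total counts (log2 fold changes 0.47, 0.47 and 0.57). Foxo1, the forkhead factor that insulin removes from the nucleus, held 46.9, 41.3 and 56.3 CPM with vehicle and 71.7, 68.0 and 68.0 CPM with esculetin, a log2 fold change of 0.52 (SE 0.11, adjusted p = 0.136, edgeR) that was under the fold threshold. Nr3c1, the glucocorticoid receptor, had a log2 fold change of -0.17 (SE 0.074, unadjusted p = 0.0432, edgeR), with a p-value under 0.05 in 8 of 16 fits, and Cebpa, the most abundant of the list per length in the vehicle libraries, had -0.01.

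Hormone signalling genes gave 3 called of 12 tested, or 25%, all lower with esculetin, beside 1.76% of all genes called as lower. Irs1, an insulin receptor substrate, held 10.7, 11.1 and 8.28 CPM with vehicle and 5.29, 6.23 and 5.23 CPM with esculetin, which did not overlap (log2 fold change -0.84, SE 0.16, adjusted p = 0.132, edgeR). Sik1, a kinase induced by glucagon and cAMP that restrains the CREB coactivators, held 45.3, 40.5 and 16.4 CPM with vehicle and 17.1, 10.9 and 7.85 CPM with esculetin. Nr4a1, an immediate early nuclear receptor, held 2.96, 3.68 and 0.948 CPM with vehicle and 0.808, 0.951 and 0.806 CPM with esculetin. For both Sik1 and Nr4a1, vehicle replicate 3, which was also the lowest vehicle library for G6pc1, lay within the esculetin range. Their log2 fold changes were -1.52 (SE 0.36, adjusted p = 0.174, edgeR) and -1.57 (SE 0.44, adjusted p = 0.230, edgeR). Socs3, which restrains cytokine and insulin signalling, had -0.55 (SE 0.23, unadjusted p = 0.0401, edgeR). Its p-value was under 0.05 in 12 of 16 fits, and it was called in 2 of them. Igfbp1, the most abundant of the list per length, had a log2 fold change of 0.49 (SE 0.25, unadjusted p = 0.0852, edgeR). Over all the lists 114 other glucose metabolism genes were set, 112 were tested and 6 were called, or 5.36% beside 3.13% of all genes, with 3 in each direction. An unadjusted p-value under 0.05 was reached by 20 of the 112, or 17.9% beside 11.9% of all genes, with 15 higher and 5 lower, and the adjusted p-value was under 0.05 for none of them in edgeR. With DESeq2 it was under 0.05 for 6 of them and for 193 of all 14433 genes, and the 6 were Nr0b2, Irs1, Foxo1, Cebpb, Got1 and Nr4a1 (adjusted p between 7.14e-05 and 0.0305).

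**Figure D5:**
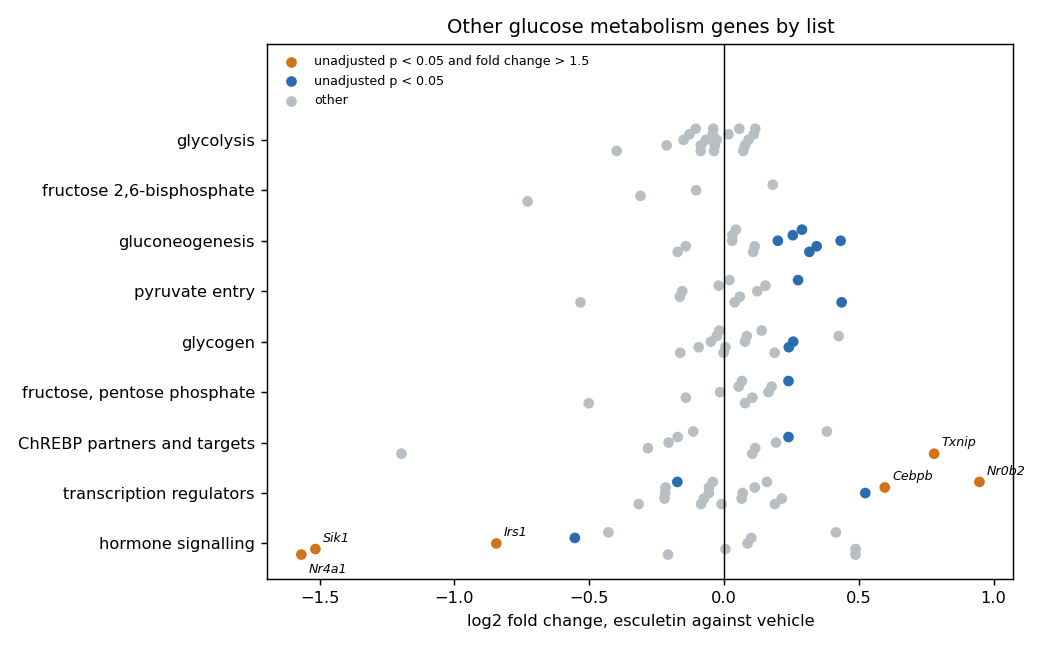
Log2 fold change of esculetin against vehicle for the other glucose metabolism genes tested, by list, with the called genes in orange and named, those with an unadjusted p-value under 0.05 in blue and the rest in grey. The blue points of the gluconeogenesis and pyruvate lists all lie to the right of 0, and the called genes of the hormone list lie to the left.

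Levels of different genes were compared as CPM per kilobase of exon. In the vehicle libraries Pck1 was highest, at 894 ± 47.0 (SD, n = 3), followed by Fbp1 at 385 ± 58.5, G6pc1 at 274 ± 94.6, Slc2a2 at 83.0 ± 3.10, Pklr at 48.7 ± 7.46, Gckr at 34.9 ± 5.35, Mlxipl at 21.6 ± 3.48, Pfkfb1 at 4.998 ± 0.368 and Ppargc1a at 1.61 ± 0.363. Fbp1 and G6pc1 were the only neighbours in this order whose libraries overlapped, from 349 to 453 for Fbp1 and from 197 to 380 for G6pc1. In the esculetin libraries the order was the same, but G6pc1, at 144 ± 37.4, no longer overlapped Fbp1, at 409 ± 31.4.

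Markers of liver zones and cell types were compared beside these genes, since G6pc1 and Pck1 are known to be higher near the portal vein. Their counts at an unadjusted p-value under 0.05 are to be read against the 11.9% of all genes at that level. Of 6 periportal markers 0 reached it in edgeR, and their summed level was 3844 to 4427 CPM with vehicle and 4178 to 5015 CPM with esculetin. Of 6 pericentral markers 1 reached it, Lgr5, with a log2 fold change of -0.48, and the summed level was 9233 to 10246 CPM against 9982 to 11544 CPM. Clock genes gave 2 of 11, or 18.2%, Clock at -0.25 and Per3 at -0.29, with sums of 608 to 640 CPM against 569 to 657 CPM. Hepatocyte markers, of which Alb makes up most of the total, summed to 89273 to 93701 CPM with vehicle and 86031 to 93099 CPM with esculetin, and 1 of 8 had an unadjusted p-value under 0.05, Serpina1c, at a log2 fold change of 0.52 (SE 0.091). The 5 cholangiocyte markers summed to 39.5 to 80.4 CPM against 30.3 to 45.7 CPM, of which Spp1 was called as lower (log2 fold change -0.75, SE 0.26) and the other 4 had higher fitted values, between 0.057 and 0.63, that did not pass the test. The 7 Kupffer cell markers summed to 327 to 432 CPM against 335 to 349 CPM, and 0 of them had an unadjusted p-value under 0.05. Endothelial and stellate cell markers gave 0 of 6 each at that level in edgeR, and their sums were 168 to 208 against 178 to 207 CPM and 308 to 355 against 280 to 370 CPM. Lymphocyte markers summed to 14.7 to 15.8 CPM with vehicle and 12.0 to 14.5 CPM with esculetin, with Cd79a called as higher (0.272 to 0.511 against 0.508 to 1.31 CPM) and Ptprc at a log2 fold change of -0.30 (unadjusted p = 0.0201, edgeR). Erythroid markers summed to 127 to 155 CPM against 114 to 178 CPM, with Hba-a2 called as higher (0.749 to 0.982 against 1.19 to 2.15 CPM) and Alas2 at -0.24 (unadjusted p = 0.00970, edgeR). Of 4 adipocyte markers, Lep and Retn had no counts, Adipoq had at most 4 counts in a library, and Cidec lay between 1.96 and 2.55 CPM with vehicle and between 1.21 and 2.27 CPM with esculetin. The part of these markers in the results above was not tested.

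The genes whose log2 CPM followed each gene most closely over the 6 libraries were found among 7090 other protein-coding genes with a mean of at least 10 CPM, as a description that includes the difference between the groups. Pearson's r was highest for G6pc1 with Plekha5, Otud4 and Adam9 (0.995, 0.995 and 0.993), and 121 genes had an r over 0.9 with it. For Pfkfb1 they were Nudt4, Rpl8 and Chmp4b (0.9997, 0.996 and 0.992), with 243 genes over 0.9, the most of the 9. Pck1 was followed by Klhl21, Mrpl2 and Dtd2 (0.988, 0.984 and 0.977), Fbp1 by Cyp17a1, Nadk and Net1 (0.988, 0.988 and 0.981) and Slc2a2 by Specc1l, Ppm1g and Zcchc24 (0.997, 0.993 and 0.990). Pklr was followed by Rap2a, Atp1b3 and Pcyox1 (0.993, 0.986 and 0.976) and Gckr by Sec16b, Elmod3 and Lap3 (0.989, 0.987 and 0.973). Ppargc1a was followed by P4ha1, Twsg1 and Wdr82 (0.991, 0.989 and 0.982) and Mlxipl by Fbxo8, Khnyn and Tsnax (0.978, 0.977 and 0.973). Each of the 9 genes had 36 or more others with an r over 0.9, and none of the names above recurs between them.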

How the data were processed

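Total RNA from livers was extracted with Trizol and sequenced as 150-base paired ends from NEBNext Ultra libraries. The authors aligned the reads with HISAT2 2.2.1 to GRCm39 and counted them per gene with featureCounts, and the deposited values are raw counts that are not normalized. The submitters' processing notes also name mm10. The annotation, strand setting and treatment of multi-mapping reads are not given in the sources used here, so reads of overlapping genes on opposite strands cannot be told apart. Vehicle and esculetin libraries were assigned to groups by their labels, and no column was left unused.

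Here symbols, positions and exon lengths were taken from GENCODE for GRCm39, which held 54749 of 55357 identifiers. Counts were filtered with filterByExpr, scaled by TMM and tested with edgeR 4.0.16 in R 4.3.3. The SE was obtained from the fold change (log2) and the F statistic, and its 95% interval uses the total degrees of freedom of the fit. The alternatives were DESeq2 1.42.0, limma 3.58.1 (voom and trend), scaling by DESeq2 size factors or by total counts, omitting the filter or requiring 10 counts in each library, leaving out each library, a replicate block, thinning to the smallest total, and fold-change thresholds of 1.2 and 2. The test was checked on simulated data. The chi-square per gene between replicates was at least 24.2, far above sampling noise, and all libraries were kept as separate. Promoter windows are from RefSeq (GRCm38.p6 table), matched for 9 of 9 genes.

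The members and gene lists were chosen with earlier results of these data known. The genes named are the 9 genes, from each list those called or with an unadjusted p-value under 0.05 and the most abundant per length, and the 3 protein-coding genes with the highest correlation. Pfkl, G6pc3, Pfkfb2, Pfkfb4, Tigar, the marker genes and overlapping genes were named beyond this rule, after their values were seen. Some genes of the glycolysis list that this rule or a comparison would name are not reported here.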

Additional observations from a re-analysis of the deposited data

How the results depend on the processing

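G6pc1 was past the thresholds of the study in the fit with all choices as described and under all 15 alternatives, with a log2 fold change between -0.95 and -0.90 where all 6 libraries were used and between -1.11 and -0.62 with a library left out. The number of the 9 genes called ranged from 1 to 2 with a library left out, the additional gene being Pfkfb1, and the number with an unadjusted p-value under 0.05 from 2 to 3, the additional gene being Fbp1. It was 2 with a fold change over 1.2 and 0 with a fold change over 2, where the numbers of all genes called were 1270 and 217 and those of other glucose metabolism genes 14 and 2. Leaving out a library gave 6 to 10 other glucose metabolism genes and 411 to 588 of all genes.

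Without a filter on low counts, 776 genes were called, and 2 of the 9 genes, Pfkfb1 and G6pc1, had an adjusted p-value under 0.05. The number of genes with such a value was then 477, against 6 with the filter, 193 with DESeq2, 15 with the replicate block and 2 to 45 with a library left out. In that fit the prior degrees of freedom of the spread were 107 against 5.72 with the filter, and the adjusted p-value of G6pc1, 9.84e-10, rests on that prior. With DESeq2, 1 of the 9 genes, Pfkfb1, passed after adjustment. The direction of Gckr, Slc2a2 and Ppargc1a reversed with some library left out, with log2 fold changes between -0.13 and 0.055, between -0.059 and 0.022 and between -0.022 and 0.31.

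With the replicate number as a block, 399 genes were called, and G6pc1 (log2 fold change -0.90, adjusted p = 0.333, edgeR) was again the called gene of the 9. Of the other glucose metabolism genes, Sik1 then had an adjusted p-value under 0.05 (log2 fold change -1.46, SE 0.16, adjusted p = 0.0322, edgeR), as it did without vehicle replicate 3. After the group means were subtracted, libraries with the same number correlated at -0.069, -0.011 and 0.0027, and the numbers are taken as names only.

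A single RNA-seq comparison of 3 pools against 3 limits every value here, and with a median SE of 0.11 among the 9 genes, differences of the size fitted for Pck1 or Fbp1 could not be separated from 0. Counts per gene do not separate transcripts, and neither enzyme activity nor glucose was measured in these files.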

Other observations

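The genes in this paragraph were singled out after their values were seen. Onecut1, a liver transcription factor of the regulator list, held 1.53, 3.01 and 14.6 CPM with vehicle and 1.37, 1.21 and 12.6 CPM with esculetin, so that replicate 3 of each group stood apart from the other 4 libraries. Its log2 fold change was -0.32 (SE 0.94, unadjusted p = 0.743, edgeR).

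The esculetin library with the highest Txnip level, replicate 3, was also the highest of the 6 for Klf10, a zinc-finger factor of the ChREBP target list (24.4 CPM, against 10.2 to 14.3 CPM in the other 5), and for the clock repressor Nr1d1 (44.7 CPM, against 20.7 to 36.6 CPM). It was the lowest of the 6 for Srebf1, the lipogenic factor SREBP1 (135 CPM, against 206 to 270 CPM), and for the clock gene Cry1 (7.55 CPM, against 10.1 to 19.5 CPM). G6pc1 in that library, 362 CPM, was the middle value of its group.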
